A study of Mus musculus with 4 samples.

Results

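Cytosolic ribosomal protein transcripts were examined in bone-marrow Lin-Kit+ cells of C57BL/6 mice, the progenitor fraction that lacks lineage markers and carries the Kit receptor. The study compared 2 genotypes, with 2 libraries of Asxl1-/- cells (KO) and 2 libraries of wild-type cells (WT), each made from the same number of cells. The labels name no promoter, Cre or age for the deletion, and do not say whether the replicates were separate animals, so p-values measure the spread between these libraries. Members were the single-locus rows of the deposited table with a gene name of the Rpl or Rps pattern, mitochondrial ribosomal proteins and S6 kinases left out, and a value of 10 or more in at least 2 libraries. They numbered 81 of the 13764 loci that passed that filter, 49 of the large and 32 of the small subunit. One further matching row, a second Rpl29 locus on chromosome 1 with 1 to 4 reads a library, was below it. The 81 rows carried 79 gene names, because Rps4x and Rpl29 were each listed at a second place, and 13 rows merged the gene with another annotated gene whose reads cannot be separated from it.

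The cytosolic ribosome is built from a small subunit, which reads the messenger RNA, and a large subunit, which joins amino acids and ends in a stalk that recruits the elongation factors. Its proteins are needed in near equal numbers, and their messengers are among the most abundant of a growing cell. Many of these messengers start with a run of pyrimidines (a TOP sequence), through which mTOR signalling and the protein LARP1 set their translation. Blood formation is sensitive to them: in humans, loss of 1 copy of several of these genes causes Diamond-Blackfan anemia, and RPS14 lies in the region lost in the 5q- syndrome. Mammalian genomes also hold many processed copies of these genes, and the treatment of reads that match several places is not given in the sources used here, so the level of any single row carries that uncertainty.

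The libraries held 83586916 and 76688583 recovered reads in KO and 46597871 and 49764454 in WT. Asxl1 had values of 146 and 135 in KO libraries, against 9742 and 9472 in WT libraries, which matched the labels. Kit was present in every library, at 18483 and 18889 in KO and 17739 and 16149 in WT. Of 13 tested mature neutrophil markers 12 were higher in KO and 0 lower, and they summed to 3.49% and 3.27% of the reads in KO and 1.83% and 2.03% in WT. Of 10 B lineage markers 5 were lower (0.158% and 0.109% of reads in KO, 0.225% and 0.212% in WT), and of 11 progenitor markers 3 were lower and 0 higher. The other marker lists summed to 0.0704% to 0.0727% of reads in KO and 0.0679% to 0.0703% in WT for monocytes and macrophages, 0.1497% to 0.171% in KO and 0.0869% to 0.102% in WT for erythroid cells, and 0.462% to 0.468% in KO and 0.2498% to 0.2501% in WT for mast cells, basophils and eosinophils. T and NK cells came to 0.00992% to 0.0113% in KO and 0.0132% to 0.0147% in WT, and stroma and endothelium to 0.00966% in KO and 0.0120% to 0.0122% in WT. The counts past the threshold were 2 higher and 3 lower of 9 for monocytes and macrophages, 4 and 0 of 9 for erythroid cells, 3 and 5 of 10 for mast cells, basophils and eosinophils, 0 and 3 of 9 for T and NK cells, and 0 and 3 of 10 for stroma and endothelium. The erythroid sum was mostly Tfrc, at 65735 and 72747 in KO and 32018 and 32799 in WT. The whole erythroid list summed to 94862 and 108193 in KO and 52419 and 61620 in WT. In the list of mast cells, basophils and eosinophils the 3 higher were the eosinophil genes Epx, Prg2 and Ear2 (merged with Ear3). The 5 lower were the mast cell and basophil genes Cpa3, Mcpt8, Prss34, Ms4a2 and Fcer1a, so the summed share does not hold for each cell type. No tested marker was at 0 in any library. The part of such shifts in cell makeup in the results that follow was not tested, and in bulk RNA fewer cells of a type and less RNA per cell cannot be told apart.

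Ribosomal protein transcripts were slightly higher in KO as a group, with a few that stood out. Past the threshold (adjusted p under 0.05 by limma over all loci), 17 of the 81 members rose and 1 fell. At an unadjusted limma p under 0.05 there were 40 of the 81 members, and 5194 of the 13764 loci. The calls are 22.2% of the members, close to the 20.9% of all loci that passed. The directions were divided otherwise than over all loci: 21.0% of members rose and 1.23% fell, whereas 11.9% of all loci rose and 8.97% fell. The median log2 fold change of the members, on the log2(value + 1) scale, was 0.11, a level 8.22% higher in KO, and that of all loci was -0.0062. For replicates numbered 1 the median difference of KO from WT was 0.093, and for those numbered 2 it was 0.15.

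The shifts were small and much alike. Of the 81 members 71 had a positive fold change, 71 lay within 0.25 of 0 on the log2 scale, and the middle 50% of them fell between 0.038 and 0.17, against -0.21 and 0.21 for all loci. On the deposited scale both KO values lay above both WT values in 57 members (70.4%), and in 32.5% of all loci. On that scale both KO values lay below both WT values in 5 members (6.17%), and in 33.6% of all loci. These counts depend on the scaling: summed values were higher in KO on that scale, and library totals were not tried for them. The counts past the threshold also changed with the scaling. When libraries were scaled to their total reads 9 members rose and 3 fell, with a median of 0.049 where all loci had -0.060. Those are 11.1% and 3.70% of the members, where 9.76% of all loci rose and 14.9% fell at that scaling, so the share that rose was close to that of all loci. The gap between the median of the members and that of all loci stayed between 0.11 and 0.12 under every scaling tried. Without WT replicate 1 only 5 members rose and 0 fell, and without WT replicate 2 only 4 rose and 0 fell. The shares that rose were then 6.17% and 4.94% of the members, near the 4.38% and 5.88% of all loci.

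**Figure D1:**
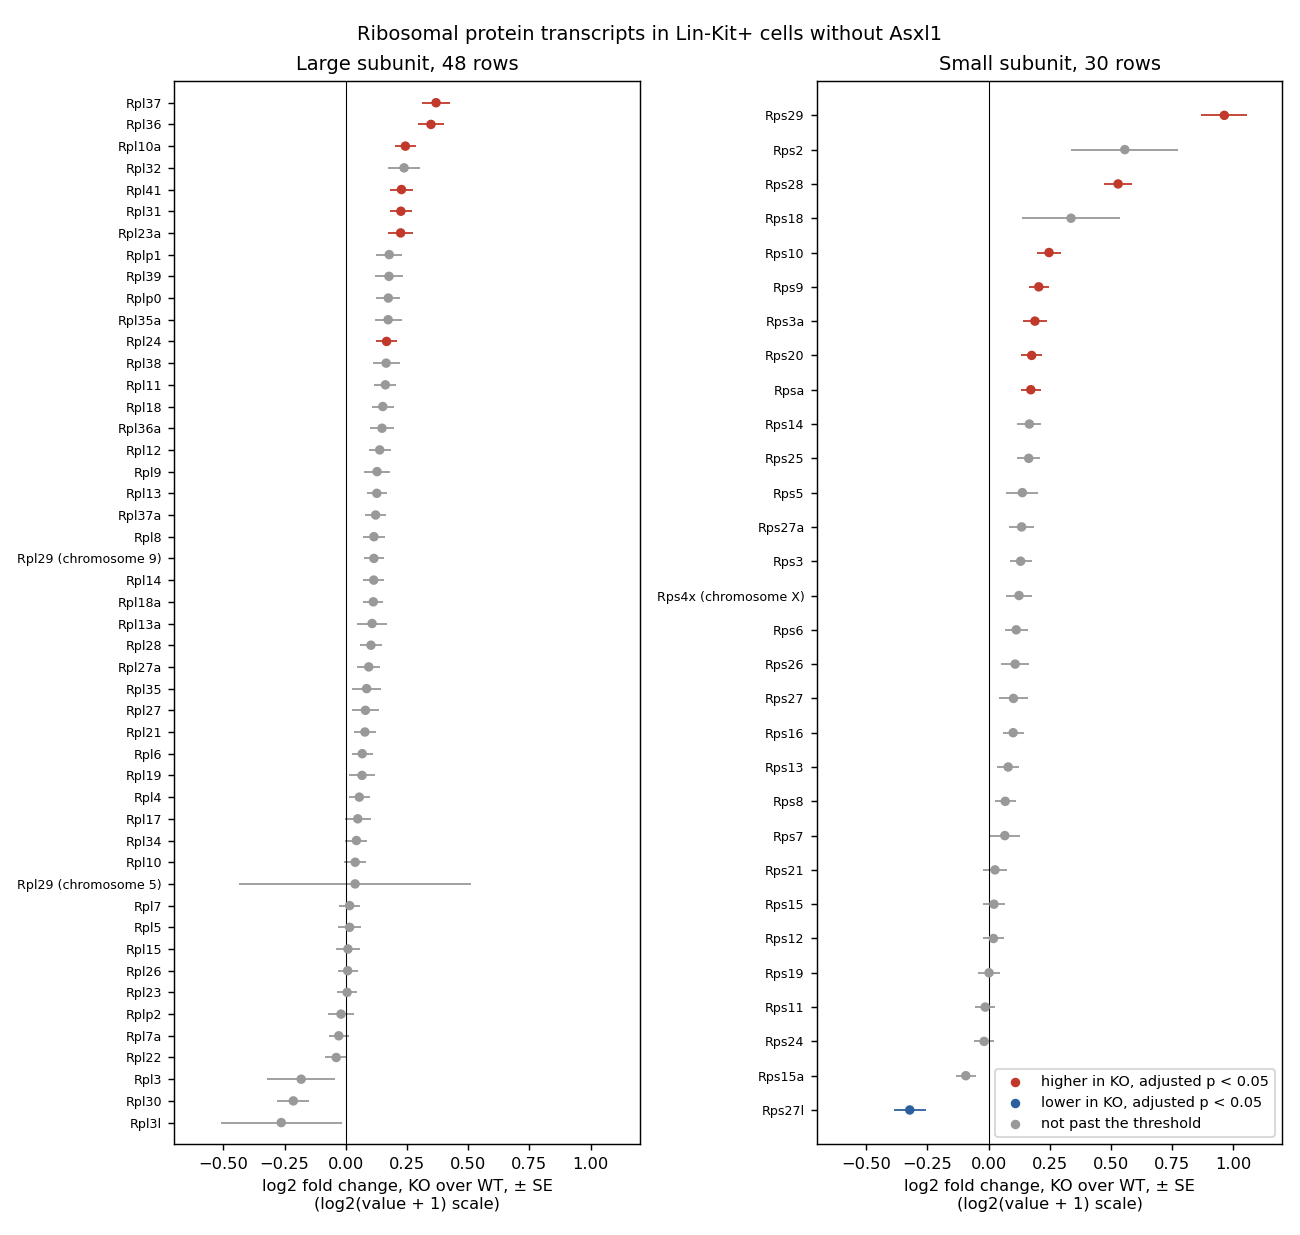
Log2 fold change of each ribosomal protein row, KO over WT, with its SE (2 libraries a group), large subunit left and small subunit right, sorted by size. Most points sit just right of 0, with Rps29 and Rps28 farthest right among the called members drawn and Rps27l at the lower end of the small subunit. Rpl39l (4.56) and the chromosome 6 row of Rps4x (2.05) lie outside the axis and are not drawn, and 1 small-subunit row is left out.

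As a share of all reads in the library, which does not depend on scaling, the members took 4.71% (95% Wilson interval 4.703% to 4.712%) and 4.73% (4.72% to 4.73%) in KO, against 4.66% (4.657% to 4.669%) and 4.54% (4.537% to 4.548%) in WT. The intervals cover counting error only. The 2 KO libraries were above both WT libraries, but the gap of 0.114 percentage points was little more than the SD of 0.0854 between the WT libraries. An exact two-sided permutation test gave p = 0.333, the smallest that 2 against 2 libraries allow. The gap was 0.0535 percentage points without WT replicate 2, 0.174 without WT replicate 1 and 0.0638 without the 13 merged rows. Without the merged rows the genotypes overlapped, at 3.891% and 3.93% in KO and 3.8999% and 3.79% in WT. The merged row of Rps2, noticed after its values were seen, had 1019 RPM (reads scaled to library totals) in KO replicate 1. It had 609 RPM in KO replicate 2, and 574 and 547 in WT. Its excess in KO replicate 1 over WT replicate 1 was about the whole margin between the shares of those libraries. The separation of the genotypes for all members therefore rested on that row. Large-subunit members took 2.79% and 2.84% in KO and 2.81% and 2.75% in WT, which overlap (exact p = 0.667). Small-subunit members took 1.91% and 1.89% in KO and 1.85% and 1.79% in WT, which do not (exact p = 0.333).

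**Figure D2:**
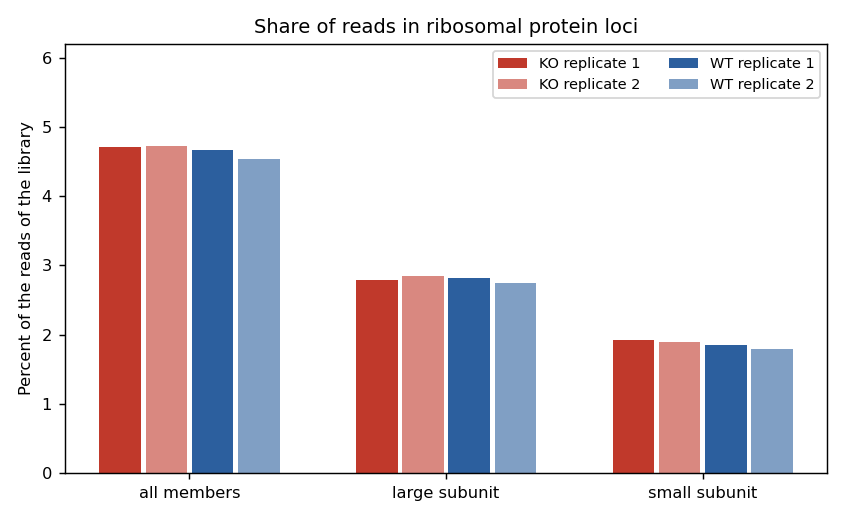
Percent of the reads of each library that fell in ribosomal protein rows, for all 81 members and for each subunit, with KO bars left of WT bars. The bars of all 4 libraries lie between 4.54% and 4.73% for all members.

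In the small subunit, Rps29 showed the largest change of any called member outside the low copies described further on. Rps29, a small zinc-binding protein of the subunit's head, had values of 1387 and 1322 in KO libraries, against 719 and 671 in WT libraries. Both KO libraries were nearly double the WT libraries, and the log2 fold change was 0.96 ± 0.09 (SE, n = 2 a group, limma adjusted p = 0.00276). Rps28, which lies near the channel where the messenger leaves the subunit, had 4079 and 4143 in KO and 2861 and 2838 in WT. Replicates of a genotype differed by far less than the genotypes, and the log2 fold change was 0.53 ± 0.06 (limma adjusted p = 0.00358). The calls of Rps29 and Rps28 held in all 14 alternatives, those that left out a library included.

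The other small-subunit members that rose did so by less. Rps10, a protein of the subunit's head, had 20744 and 20671 in KO and 17927 and 16994 in WT (log2 fold change 0.25). Rps10 is mutated in human Diamond-Blackfan anemia. Rps9, a core protein that binds ribosomal RNA early in assembly, had 64908 and 64771 in KO and 56754 and 55778 in WT (0.20). Rps3a, near the exit of the messenger channel, had 60639 and 60148 in KO and 54775 and 51251 in WT (0.19), and Rps20, a protein of the head, had 32168 and 31980 in KO and 28844 and 27959 in WT (0.18). In none of these did the genotypes overlap, yet each was under 1.2-fold. Rpsa, also known as the laminin receptor precursor and mutated in human congenital asplenia, had 107060 and 108016 in KO and 95105 and 95797 in WT (0.17). The calls of Rps3a, Rps20 and Rpsa were lost with edgeR (adjusted p with TMM = 0.0712, 0.0545 and 0.0657). With library totals as the scale those of Rps3a, Rps20, Rpsa and Rps9 were lost (limma adjusted p = 0.142, 0.119, 0.159 and 0.0727). Rps3a lost its call whichever library was left out. When WT replicate 1 or WT replicate 2 was left out none of these 5 genes was called.

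In the large subunit, Rpl37 and Rpl36 rose most among the rows with more than a handful of reads. Rpl37, a small zinc-binding protein, had 7164 and 7285 in KO and 5809 and 5390 in WT, a log2 fold change of 0.37 ± 0.06 (limma adjusted p = 0.0104). Rpl36 had 7503 and 7893 in KO and 6119 and 5975 in WT, a log2 fold change of 0.35 ± 0.05 (limma adjusted p = 0.00952). The libraries of the 2 genotypes were clearly apart in both genes. The call of Rpl37 was lost without WT replicate 2 (adjusted p = 0.0718), and that of Rpl36 when WT replicate 1 or WT replicate 2 was left out (highest adjusted p = 0.0693).

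The remaining 5 canonical large-subunit members that passed rose by 0.17 to 0.24 on the log2 scale. Rpl10a, the protein of the mobile L1 stalk that handles the leaving transfer RNA, had 22811 and 23228 in KO and 19269 and 19629 in WT (0.24). Rpl41, the shortest protein of the ribosome with a coding length of 75 bases, had 20597 and 21472 in KO and 18289 and 17648 in WT (0.23). Rpl31, near the exit tunnel and a further Diamond-Blackfan gene, was read in a row merged with Tbc1d8 and Gm6635 and had 28707 and 29830 in KO and 24961 and 25118 in WT (0.22). The KO libraries lay above the WT libraries in all of them. Rpl23a, which stands at the exit of the tunnel, had 31180 and 29012 in KO and 25820 and 25688 in WT (0.22). Rpl24, which forms a bridge to the small subunit, had 21388 and 21908 in KO and 19379 and 19199 in WT (0.17). These 5 calls were lost when WT replicate 1 or WT replicate 2 was left out, and those of Rpl41, Rpl23a and Rpl24 with library totals as the scale. Rpl24 was also lost without KO replicate 2.

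**Figure D3:**
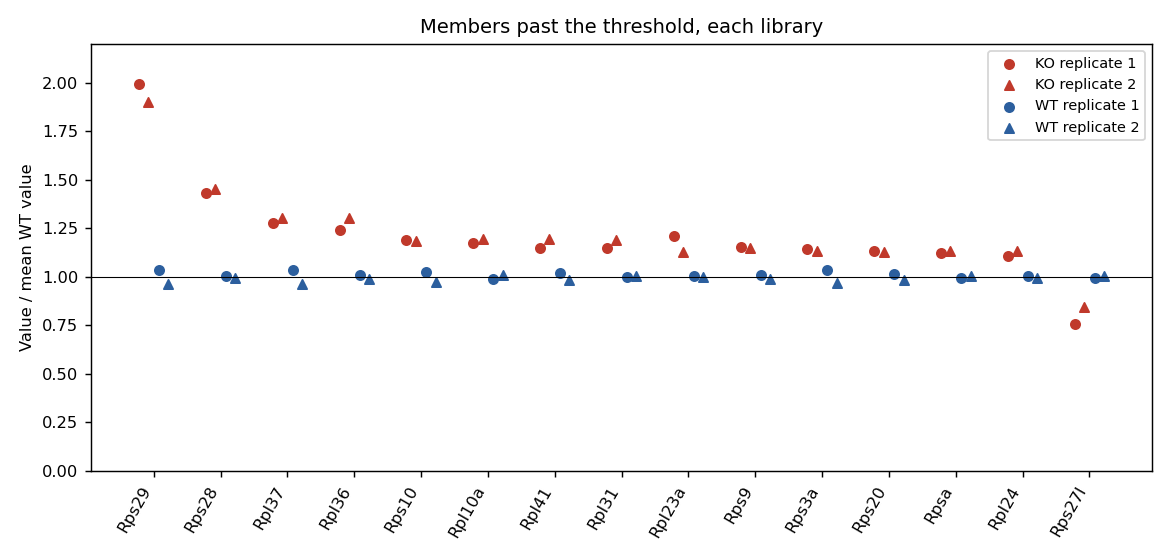
Value of each library divided by the mean WT value of the gene (linear axis from 0) for 15 members past the threshold whose fold change fits the axis, sorted by fold change. KO libraries lie left of the WT libraries in each gene, and they sit above all WT libraries in 14 genes and below them in Rps27l.

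The row that fell was Rps27l, a paralog of Rps27 that p53 induces in human cells. Rps27l had 5433 and 6036 in KO libraries, against 7135 and 7187 in WT libraries. Both KO libraries were lower than both WT libraries, and the log2 fold change was -0.32 ± 0.07 (limma adjusted p = 0.0221). Its parent Rps27 had 23726 and 25954 in KO and 23630 and 22650 in WT, with a fold change of 0.10 that did not pass (limma adjusted p = 0.259). Reads of Rps27l therefore came to 22.9% and 23.3% of those of Rps27 in KO and to 30.2% and 31.7% in WT. The call of Rps27l was lost when WT replicate 1 or WT replicate 2 was left out (highest adjusted p = 0.11).

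The largest folds belonged to 2 rows of copies with few reads beside their parents. Rpl39l, a copy of Rpl39 that in mice is used mainly in the testis, had 70 and 76 reads in KO libraries, against 4 and 0 reads in WT libraries, where a count of 0 allows up to 3 reads. Relative to library totals its reads were 21.9 times higher in KO (95% exact interval 8.39 to 81.6, counting error only). Rpl39l passed the filter on low values only through its KO libraries, so its call (limma adjusted p = 0.0204) supports nothing further. Its fitted log2 fold change of 4.56 ± 0.89 depends on the pseudocount and on single WT libraries: it was 2.46 with a pseudocount of 10, 0.88 when libraries were scaled to total reads, 5.87 without WT replicate 1 and 3.25 without WT replicate 2. Even in KO the reads of Rpl39l were 0.542% and 0.64% of those of Rpl39, which had 9786 and 9804 in KO and 9028 and 8323 in WT (fold change 0.18, adjusted p = 0.0752, not past the threshold). A second row named Rps4x, on chromosome 6 (mm9, chr6:148303177-148304118), spans 942 bases where the X-linked row spans 4382. This chromosome 6 row had 1018 and 1376 in KO and 210 and 385 in WT, a log2 fold change of 2.05 ± 0.30 (limma adjusted p = 0.00864) that held in all 14 alternatives. The X-linked Rps4x row had 92686 and 97138 in KO and 89636 and 84595 in WT (0.12, adjusted p = 0.139). Reads of the chromosome 6 row were 1.1% and 1.42% of those of the X-linked row in KO and 0.234% and 0.456% in WT, so they were not in 1 fixed ratio to it. Near-identical copies can share reads, and the split between these rows is uncertain. Rpl3l, the copy of Rpl3 used in muscle, had 167 and 112 in KO and 162 and 167 in WT, which overlap. The second Rpl29 row, on chromosome 5, had 37.9 and 24.8 in KO and 42.7 and 20.7 in WT, which overlap as well.

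**Figure D4:**
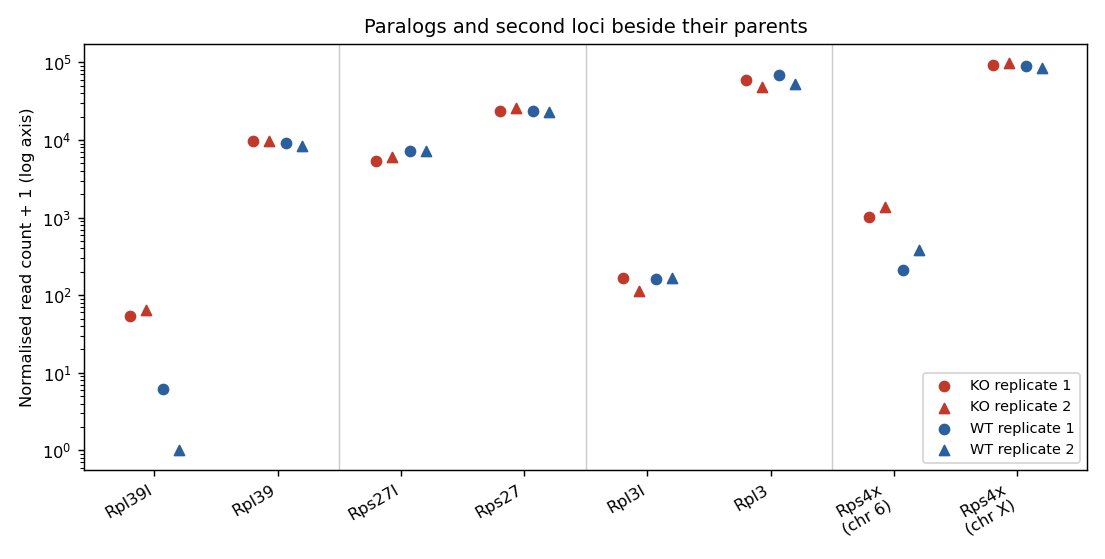
Normalised read count + 1 (log axis) in each library for 4 copies, each left of its parent, with KO libraries left of WT libraries. The KO and WT libraries are apart for Rpl39l, Rps27l and the chromosome 6 row of Rps4x, and close together for the parents.

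The start regions of members were read from RefSeq promoters (GRCm38.p6, 250 bases before to 50 after the start), which 58 of the 79 gene names matched. The sequences below, from 40 bases before to 20 bases after the start, show 3 genes that rose, and 2 copies each beside its parent. Capitals mark CCGGAAG or its reverse complement CTTCCGG, which holds the core bound by ETS-family factors, and runs of at least 8 pyrimidines (C or T) on the strand of the gene.
Rps28: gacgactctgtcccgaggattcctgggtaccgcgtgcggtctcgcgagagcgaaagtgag
Rpl37: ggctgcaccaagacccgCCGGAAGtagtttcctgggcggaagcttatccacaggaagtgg
Rps10: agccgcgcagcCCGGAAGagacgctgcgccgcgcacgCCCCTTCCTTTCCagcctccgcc
Rps27l: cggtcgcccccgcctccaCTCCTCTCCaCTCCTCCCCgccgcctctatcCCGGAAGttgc
Rps27: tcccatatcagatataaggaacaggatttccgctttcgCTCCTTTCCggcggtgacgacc
Rpl39l: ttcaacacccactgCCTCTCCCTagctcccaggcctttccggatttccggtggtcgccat
Rpl39: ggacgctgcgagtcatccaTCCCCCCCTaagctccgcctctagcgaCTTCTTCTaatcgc
They lie at chr17:33824543-33824602 (minus strand), chr15:5116573-5116632 (plus), chr17:27635225-27635284 (minus), chr9:66946046-66946105 (plus, the first of 2 starts), chr3:90213629-90213688 (minus), chr16:10170188-10170247 (plus) and chrX:37085203-37085262 (minus), in the order printed.

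CCGGAAG on either strand stood in the promoters of 25 of the 58 members (43.1%), and in those of 9.93% of the 27025 genes of the RefSeq table. It was held by 6 of the 10 members with a promoter that rose and by 18 of the 47 that did not pass the threshold. A run of at least 8 pyrimidines within 20 bases of the start, on the strand of the gene, was held by 29 members (50%) and by 18.4% of all genes, and by 3 of the 10 that rose. The string AAGATGG or its reverse complement, the core of sites of the factor YY1, was held by 9 members (15.5%) and by 7.28% of all genes, and by 0 of the 10 that rose. A match is a description of the sequence and not a bound site.

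The genes linked to human Diamond-Blackfan anemia or the 5q- syndrome had 4 of 16 that rose (25%) and 0 that fell, with a median log2 fold change of 0.10. Of all members 21.0% rose, and of all loci 11.9%. On the deposited scale both KO values lay above both WT values in 9 of the 16 (56.25%), against 70.4% of all members and 32.5% of all loci. Rps29, Rps10 and Rpl31 were among those that rose. Rps19, the gene most often mutated in the human disease, had 46579 and 45000 in KO and 46294 and 45186 in WT, and its libraries overlapped. Rps24 had 81703 and 82521 in KO and 82359 and 83998 in WT, also overlapping. Rps14 had 35774 and 38139 in KO and 33223 and 32611 in WT, with KO above WT in every library and a fold change of 0.17 that did not pass (limma adjusted p = 0.0616). Rpl5 and Rpl11 form a particle with the 5S ribosomal RNA that can bind and inhibit MDM2, the ligase that degrades p53. Rpl5, in a row merged with Fam69a, had 36086 and 37581 in KO and 35819 and 37062 in WT, which overlap. Rpl11 had 30670 and 30979 in KO and 28208 and 26924 in WT, with a fold change of 0.16 (limma adjusted p = 0.0538). Rpl35a (0.17, adjusted p = 0.0754) was not past the limma threshold either, though DESeq2 called Rps14, Rpl11 and Rpl35a higher (adjusted p = 0.0192, 0.0164 and 0.0463). The remaining genes of this group, Rps7, Rps26, Rps27, Rpl15, Rpl26 and Rpl27, had fold changes between 0.0074 and 0.11 and none passed.

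The stalk proteins did not pass the limma threshold, with 0 of 3 called and 2 at an unadjusted p under 0.05; DESeq2 called Rplp0 and Rplp1 higher (adjusted p = 0.00734 and 0.0237). Rplp0, which anchors the stalk, had 137521 and 145391 in KO and 123985 and 126777 in WT, a fold change of 0.17 (limma adjusted p = 0.055). Rplp1 had 21617 and 23428 in KO and 19698 and 20110 in WT (0.18, adjusted p = 0.0658), and Rplp2 had 20359 and 20673 in KO and 19932 and 21703 in WT (-0.020). The KO libraries lay above the WT libraries for Rplp0 and Rplp1 and inside their range for Rplp2. Without KO replicate 1 both Rplp0 and Rplp1 were called higher (limma adjusted p = 0.0244 and 0.0173). Rpl4 and Rpl7, with Rplp0, Rpsa and X-linked Rps4x the members with the highest values, were nearly level. Rpl4 had 133155 and 134754 in KO and 130346 and 127551 in WT, and Rpl7 had 93388 and 91746 in KO and 92068 and 91095 in WT. These values are per gene and not per length, so they do not rank the genes by molecules.

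Rps2, Rps18 and Rpl3 varied widely between replicates and are named here after their values were seen. Rps2, in a row merged with Gm10653, had 64532 and 38557 in KO and 34662 and 33210 in WT. Only KO replicate 1 was far from the rest, and the fold change of 0.56 ± 0.22 did not pass (limma adjusted p = 0.122), though it was called without KO replicate 1 at 0.18 and without KO replicate 2 at 0.93. Rps18 had 42454 and 31948 in KO and 35268 and 24123 in WT, and Rpl3 had 58854 and 48381 in KO and 68678 and 53385 in WT. In both genes replicate 1 was above replicate 2 in each genotype, and the genotypes overlapped. Rpl30, chosen after its values were seen as the member with the lowest p among those that were lower without passing, had 22719 and 25586 in KO and 27647 and 28310 in WT (-0.21, limma adjusted p = 0.0651). Rpl30 was called lower by limma with libraries scaled to their totals (adjusted p = 0.0314), to reads outside the members (0.0323) or by upper quartile (0.0313). It was also called lower by DESeq2 (adjusted p = 0.0224) and by limma with the replicate number as a block (adjusted p = 0.0328).

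The members with the shortest coding sequences included those that rose most. Leaving out paralogs and second loci, 76 members remained. All 9 of them with a coding length under 300 bases had both KO values above both WT values, 4 of the 9 rose and 0 fell, and their median log2 fold change was 0.18. Among the 45 members of 300 to under 600 bases 8 rose (17.8%), with a median of 0.11. Among the 22 longer ones 3 rose (13.6%), with a median of 0.11. Of 198 non-members under 300 bases 19 were higher (9.60%) and 19 lower, with a median of -0.045. Higher were 8.91% of the 1134 non-members of 300 to under 600 bases and 12.6% of the 8698 longer ones. The share of the longest members that rose was thus close to that of non-members. Across the 76 members, as a description, Pearson's r between coding length and fold change was -0.24 and Spearman's rho was -0.16. Between mean value and fold change the coefficients were -0.52 (on log2 values) and -0.29. All points share the same 4 libraries. The part of message length in these results was not tested beyond these counts.

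**Figure D5:**
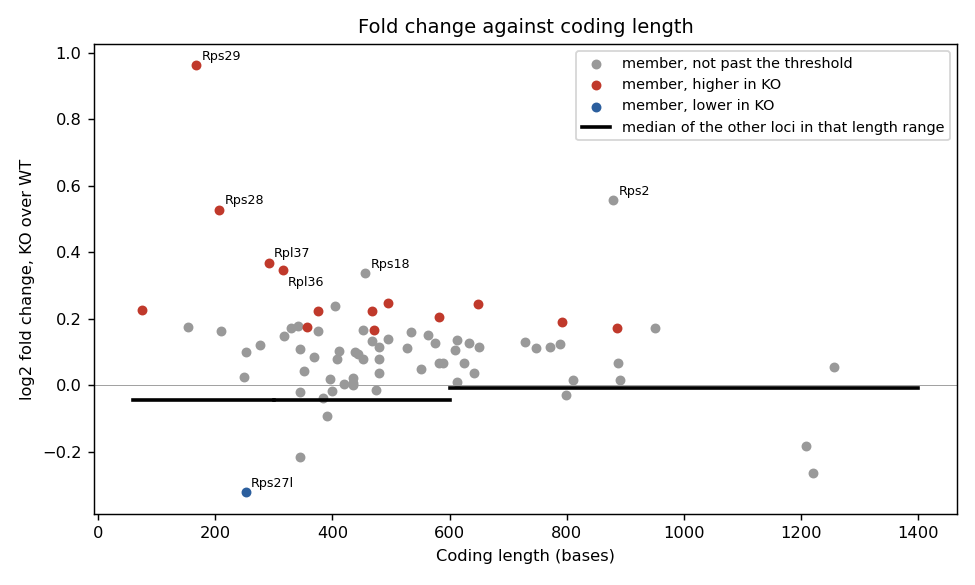
Log2 fold change, KO over WT, against coding length in bases for the member rows, 1 small-subunit row left out. Black bars give the median of all other loci with a known coding length below 300, of 300 to under 600 and of 600 bases or more. Rps29, Rps28, Rpl37 and Rpl36 lie highest among the called members drawn, whereas the black bars stay just under 0. Rpl39l and the chromosome 6 row of Rps4x lie outside the axis.

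By position, 4 of the 7 members on chromosome 17 rose (Rps10, Rpl10a, Rps28 and Rpl36), as did 13 of the 74 members elsewhere. Of the 721 other tested loci on chromosome 17, 10.5% rose. This split was noticed in the data and was given no test.

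Genes that work with the ribosome moved in both directions. Among 21 rows of ribosome partners and other TOP messengers 3 rose (14.3%) and 2 fell (9.52%), with a median of -0.063. These shares were close to the 11.9% and 8.97% of all loci. Fau, which encodes a ribosomal protein (Rps30) under a name outside the Rpl and Rps pattern, had 14221 and 13440 in KO and 10848 and 10924 in WT (0.34 ± 0.05, limma adjusted p = 0.00814). Vim, the intermediate filament gene, rose by 0.29, whereas the nucleolar chaperone gene Npm1 fell, with 102240 and 103235 in KO and 118455 and 121410 in WT (-0.22 ± 0.04, limma adjusted p = 0.0198).

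Of 40 translation factors tested, 3 rose (7.5%) and 4 fell (10%), with a median of -0.035. Of all loci 11.9% rose and 8.97% fell. Eif5 had 43696 and 42481 in KO and 30867 and 32744 in WT (0.44), and Eif1 also rose (0.25); both act in the choice of the start codon. Eef1d (-0.26), part of the factor that recharges the elongation factor eEF1A, and the cap-binding Eif4e (-0.22) fell. Of 10 snoRNA host genes tested, none rose and none fell by limma, with a median of -0.023. At an unadjusted limma p under 0.05 there was 1, and each alternative, edgeR and DESeq2 included, gave between 0 and 1 calls a direction.

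Regulators of ribosomal protein genes were mixed as well, with 2 of 21 higher (9.52%) and 3 lower (14.3%), beside 11.9% and 8.97% of all loci. Myc, which drives ribosome production, had 9413 and 10164 in KO and 12714 and 12854 in WT (-0.39 ± 0.05, limma adjusted p = 0.0079). Its relative Mycn had 210 and 224 in KO and 633 and 496 in WT (-1.36 ± 0.17, limma adjusted p = 0.00553). Mlst8, a subunit of both mTOR complexes read in a merged row, had 5656 and 5728 in KO and 3650 and 3822 in WT (0.61 ± 0.06, limma adjusted p = 0.00225), and the kinase gene Rps6ka1 rose by 0.37. In the p53 list 7 of 20 genes rose (35%) and 1 fell (5%), against 11.9% and 8.97% of all loci, with a median of 0.38. Those that rose were led by Pmaip1 (1.13), Bbc3 (1.07), Gadd45a (0.97) and Plk2 (0.84). The gene that fell was Sesn1 (-0.38). The other 12 were not called, among them the p53 targets Cdkn1a (0.10), Ccng1 (-0.016) and Bax (-0.094).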

How the data were processed

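Per the submitters' processing notes, reads were aligned with STAR 2.3.1t to mm9. No counter, annotation, strand setting or scaling tool is named in the labels or headers. The deposited signal values behave as reads scaled by the authors with a single factor for each library: 100% were whole multiples of the smallest value within 0.001 of a read. Dividing by that step recovered the reads. The 4893 rows that join neighbouring loci were not tested.

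Limma 3.58.1 with a mean-variance trend was fitted in R 4.3.3 to log2(value + 1) of all 13764 single loci with a value of 10 or more in 2 libraries, with genotype as the only term. Adjustment followed Benjamini and Hochberg (threshold 0.05). On recovered reads edgeR with TMM called 1619 loci higher and 1220 lower, where limma called 1640 and 1235. Adjusted p-values in the text come from the limma fit unless edgeR 4.0.16 or DESeq2 1.42.0 (run on recovered reads), or another setting, is named. Fits were tested on simulated data. Coding lengths are from GENCODE vM21.

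Members and lists were chosen with earlier results of these data known. Named were all called members, the 5 with the highest values, paralogs ending in l, disease and stalk genes, and up to 4 called genes a list, apart from 2 genes not reported here.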

Additional observations from a re-analysis of the deposited data

Results flagged for a closer look

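Reads in the 70 rows that join a ribosomal protein locus with a neighbouring gene, which no comparison used, came to 1.97 and 2.07 RPM (reads scaled to library totals) in KO and 1.59 and 1.39 RPM in WT. Their mean in KO, 2.02 RPM, was above both WT libraries. The rows held 165 and 159 reads in KO and 74 and 69 in WT. In the 31 rows that join such a locus with a small RNA inside it, RPM were 68.1 and 76.7 in KO and 78.0 and 76.8 in WT.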

How the results depend on the processing

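The count of 17 higher and 1 lower members was 9 and 3 when libraries were scaled to total reads, 9 and 3 when scaled to reads outside the members, and 11 and 2 with upper-quartile scaling. The medians were then 0.049, 0.050 and 0.061, and those of all loci about 0.06 below 0. Of all loci 9.76% rose and 14.9% fell with total reads, 9.84% and 14.7% with reads outside the members, and 10.2% and 13.8% with upper quartiles, against 11.1%, 11.1% and 13.6% of the members that rose. DESeq2 gave 28 higher and 2 lower (34.6% of members higher, 14.5% of all loci with an adjusted p). edgeR with TMM or RLE gave 14 and 1 (17.3% higher, 11.8% and 12.02% of all loci), and limma-voom 18 and 1 (22.2%, 10.7% of all loci). With the replicate number as a block 21 rose and 3 fell (25.9% higher, 13.8% of all loci), the additional lower calls being Rpl3 (-0.18, limma adjusted p = 0.0422) and Rpl30, and the additional higher ones including Rps18 (0.34, adjusted p = 0.00805) and Rps2 (0.56, adjusted p = 0.0371). Same-numbered libraries deviated together over all loci (correlation 0.25) and weakly over the members (0.16), but the labels do not say that a number marks a shared litter or batch. Leaving out 1 library gave 4 to 23 higher and 0 to 2 lower members (4.94% to 28.4% higher, 4.38% to 12.5% of all loci), medians of 0.10 to 0.13 and 7 to 35 calls over the 5 gene lists (25 with all libraries). In fits without a WT library the spread comes from the KO pair alone.

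Of 518 values over 37 named members and 14 alternatives, 27 changed sign, all for members that were not called. Scaled to library totals, to reads outside the members and by upper quartile, Rpl5 was at -0.050, -0.048 and -0.038, Rpl15 at -0.056, -0.055 and -0.045, Rpl26 at -0.058, -0.056 and -0.046, Rpl7 at -0.050, -0.048 and -0.038 and Rps19 at -0.064, -0.062 and -0.052. Rpl4 was at -0.010 and -0.0084 under the first 2. With 1 library left out the ranges were -0.014 to 0.045 for Rpl5, -0.022 to 0.039 for Rpl15, -0.0041 to 0.019 for Rpl26, -0.010 to 0.14 for Rps7, -0.081 to 0.042 for Rplp2, -0.023 to 0.026 for Rps19 and -0.55 to 0.020 for Rpl3l. The cause was not tested. List counts ranged from 0 to 8 a direction.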
